A study of Mus musculus with 6 samples.

Results

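A set of 9 enzymes of the TCA cycle and of itaconate synthesis (Cs, Aco1, Idh1, Idh2, Idh3a, Ogdh, Fh1, Mdh2 and Acod1) were followed in bulk RNA-seq of bone marrow–derived macrophages (BMDMs) that carried or lacked Drp1. They were taken as a named list of 9 genes out of 36137 with a matched transcript, of which 18506 were tested, and each gene's value was the sum of the estimated counts of its transcripts. All 9 passed the filter of at least 10 counts in total. DRP1, encoded by Dnm1l, is the GTPase that divides mitochondria, and the comparison asked how its loss changes macrophage transcripts under an in vitro ischemia condition. The 3 WT and 3 Drp1 KO libraries came from BMDMs grown to day 7 and then held for 8 h in serum-free medium at 2.1% oxygen (hypoxia serum starvation, HSS). Drp1 KO mice were LysM-Cre+/- Drp1 fl/fl, and their WT littermates LysM-Cre+/- Drp1+/+, so Cre, driven by the lysozyme M promoter of the myeloid lineage, was present in both groups, as was HSS. There was no library without HSS. The methods describe adult mice whose bone marrow was pooled, and the labels number the libraries of each genotype as biological replicates 1 to 3.

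The TCA cycle oxidizes acetyl-CoA in the mitochondrial matrix and passes the electrons to the respiratory chain. Citrate synthase starts it, aconitase turns citrate into isocitrate, and the dehydrogenases that follow pass electrons to NADH or, for succinate dehydrogenase, to ubiquinone. In activated macrophages, Acod1 (also called Irg1) decarboxylates the intermediate cis-aconitate to itaconate, a metabolite known for inhibiting succinate dehydrogenase and for restraining inflammatory signalling. Aco1 and Idh1 are the cytosolic counterparts of mitochondrial enzymes, and Aco1 also acts, without its iron-sulfur cluster, as the RNA-binding protein IRP1.

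Library depth ranged from 24269850 to 28650715 estimated counts in WT and from 23389488 to 32231206 in Drp1 KO. The libraries numbered 1 stood apart from the others within both groups along the second principal component, which held 29.5% of the variance. The macrophage markers Adgre1, Csf1r, Cd68, Itgam, Fcgr1, Mertk and Lyz2 were detected in every library, with a summed level of 13750 to 14150 CPM (counts scaled to library size) in WT and 12180 to 14620 CPM in Drp1 KO. Of them, Csf1r and Mertk were called lower and Fcgr1 higher in Drp1 KO, where 3.36% of all genes tested were called. The Fcgr1 call was kept in all 15 other settings, that of Mertk in 11 (lost when library 2 or 3 of either genotype was left out) and that of Csf1r in 9 (lost with length-scaled counts or when any library but number 1 of Drp1 KO was left out). The 8 neutrophil markers summed to 6.59 to 21.7 CPM in WT and 19.4 to 49.4 CPM in Drp1 KO, with Ly6g at 0 counts and Elane at 3 counts over the WT and 5 over the Drp1 KO libraries. None of the 6 neutrophil markers tested was called in the unblocked fit, where 3.36% of all genes tested were called. With the replicate number as a block, 4 of the 6 were called higher, where 12.0% of all genes tested were called. Dendritic cell markers summed to 41.6 to 64.1 CPM and 31.1 to 50.6 CPM, mostly Itgax, with Cd209a at 0 counts. Fibroblast markers stayed at or below 2.94 CPM, and lymphocyte markers ranged from 13.0 to 51.3 CPM, mostly Ighm, with Nkg7 at 0 counts over the WT and 3 over the Drp1 KO libraries. The part of these cells in any result was not tested. Dnm1l itself measured 72.7, 69.9 and 75.1 CPM in WT libraries 1 to 3 and 58.8, 60.7 and 66.3 CPM in Drp1 KO libraries 1 to 3, with no overlap. Its log2 fold change of -0.23 (SE 0.0921) did not pass the test (adjusted p = 0.248), and a sum over the whole gene does not isolate the deleted part.

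None of the 9 members was called at an adjusted p under 0.05 by edgeR's quasi-likelihood test, where 3.36% of all genes tested were called, and none was called by DESeq2 or limma-voom. In bulk libraries, fewer expressing cells and less RNA per cell cannot be told apart. Aco1 and Idh1 had an unadjusted p under 0.05, both lower in Drp1 KO, as had 16.4% of all genes tested in either direction. The labels number the libraries alike in both groups, and the source of the numbers is not stated. Deviations of same-numbered libraries correlated at 0.51, 0.204 and 0.298, but WT library 2 correlated more with Drp1 KO library 3 (0.326). A fit with the replicate number as a block was made beside the unblocked one. With that block, 2 members were called, again Aco1 and Idh1, where 12.0% of all genes tested were called. By the looser rule of a log2 fold change over 0.32 in size, the threshold of the study's methods, with unadjusted p under 0.05, 1 member passed (Idh1), where 12.7% of all genes did. That count went to 0 when library 3 of Drp1 KO was left out. It went to 2 (Idh1 and Aco1) when library 2 or 3 of WT, or library 1 of Drp1 KO, was left out. When library 1 of WT or library 2 of Drp1 KO was left out, the member that passed was Acod1, higher in Drp1 KO, and not Idh1. The members' median log2 fold change was -0.07 (0.036 with counts scaled by transcript length), with 5 lower and 4 higher, and the median over all genes tested was 0.0046. The CPM of WT and Drp1 KO did not overlap for 1 member, Aco1, and 21.9% of all genes tested showed no overlap. In TPM they did not overlap for 4 members (Aco1, Idh1, Idh2 and Ogdh), against 21.7% of all genes tested.

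**Figure D1:**
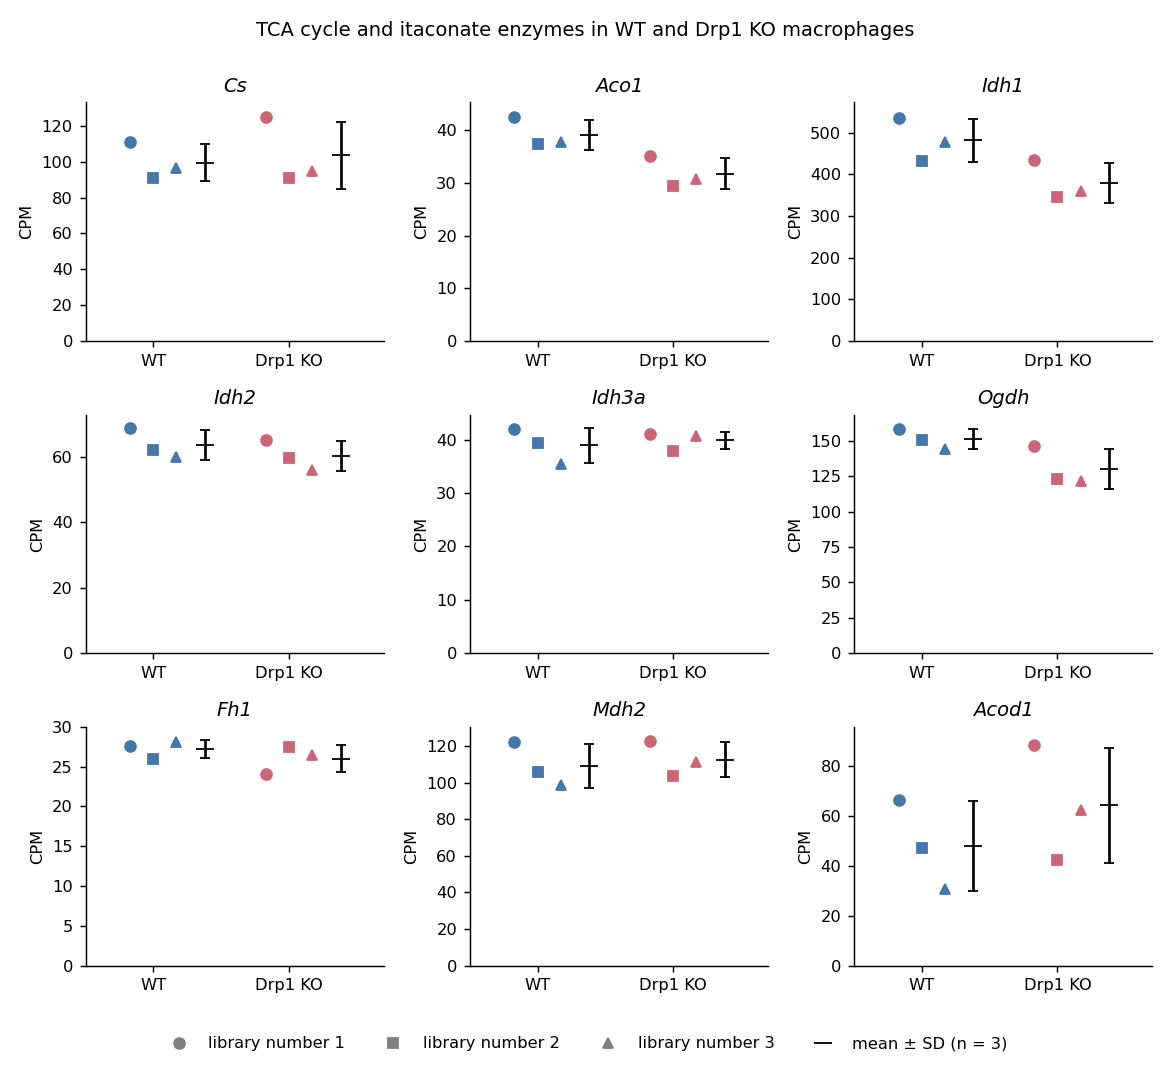
Normalized level (CPM, y axis from 0) of each of the 9 members in the 3 WT (blue) and 3 Drp1 KO (red) libraries, with the library number as the symbol and the mean ± SD in black. Aco1 is the member whose groups do not overlap, Idh1 nearly separates, and Acod1 has the widest spread relative to its mean within each group.

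Per length, and summed over all transcripts of a gene, the members covered a wide range of levels. In WT, Idh1 was the most abundant at 362 ± 38.1 TPM (abundance scaled to transcript length and library size, SD, n = 3), and Mdh2 was next at 163 ± 9.45 TPM. Of the Mdh2 sum, 74.4 to 84.0 TPM lay on Mdh2-207, a coding transcript of only 648 bases. The canonical Mdh2-201 held 52.3 to 65.0 TPM. Ogdh (50.2 ± 1.96), Idh2 (50.2 ± 2.15) and Cs (47.8 ± 4.50 TPM) followed, and these 3 overlapped along the order, apart from Fh1 below them. Fh1 (37.8 ± 4.27), Idh3a (36.8 ± 1.72) and Acod1 (27.6 ± 9.31 TPM) likewise overlapped along the order, and Aco1 was lowest at 16.1 ± 0.651 TPM. This order holds for gene sums only. In WT, Fh1-205 (542 bases) held 19.0 to 26.2 TPM. The canonical Fh1-201 held 11.3 to 13.7 TPM, against 12.3 to 14.1 TPM for Aco1-201. Idh3a-203, annotated as a retained intron, held 23.4 to 28.2 TPM and the coding Idh3a-205 held 8.64 to 8.99 TPM. In Drp1 KO, Idh1 again led by gene sum at 266 ± 24.6 TPM, then Mdh2 at 174 ± 10.2 TPM, and Aco1 was again lowest at 13.3 ± 0.583 TPM. There Mdh2-201 alone held 32.6 to 42.5 TPM. The 6 members between Mdh2 and Aco1 overlapped their neighbours throughout in Drp1 KO, from Cs at 47.1 ± 7.10 TPM to Acod1 at 35.1 ± 11.8 TPM.

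Cs, citrate synthase (chr10:128172837-128198363, GRCm39, plus strand), which condenses acetyl-CoA with oxaloacetate, measured 111, 91.2 and 96.4 CPM in WT libraries 1 to 3 and 125, 90.9 and 94.99 CPM in Drp1 KO libraries 1 to 3. Library 1 was the highest in each group, and the groups overlapped. Its log2 fold change was 0.06 (SE 0.134, adjusted p = 0.912), and it changed sign when library 2 of WT (-0.02) or library 1 of Drp1 KO (-0.11) was left out.

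Aco1 (chr4:40142998-40199010, plus strand), the cytosolic aconitase and IRP1, measured 42.4, 37.3 and 37.7 CPM in WT and 35.1, 29.4 and 30.8 CPM in Drp1 KO. Every Drp1 KO library was below every WT library. The log2 fold change was -0.30 (SE 0.109, unadjusted p = 0.0192, adjusted p = 0.189), and with the replicate block the adjusted p was 0.0301. Its log2 fold change lay between -0.39 and -0.24 with any single library left out, and was -0.32 without both libraries numbered 1 (adjusted p = 0.0565). With counts scaled by transcript length it was -0.19 and was not called (adjusted p up to 0.494 over all alternatives).

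Idh1 (chr1:65196781-65225721, minus strand), the cytosolic and peroxisomal isocitrate dehydrogenase, makes NADPH from isocitrate. It measured 535, 432 and 477 CPM in WT and 433, 346 and 360 CPM in Drp1 KO. The highest Drp1 KO library, number 1, lay just above the lowest WT library, number 2, and in each same-numbered pair Drp1 KO was lower. In TPM its groups were apart, at 387, 318 and 381 in WT and 292, 243 and 263 in Drp1 KO. The log2 fold change was -0.34 (SE 0.120, unadjusted p = 0.0168, adjusted p = 0.177). With the replicate block the adjusted p was 0.00942, and without both libraries numbered 1 it was 0.0269 at a log2 fold change of -0.37.

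Idh2 (chr7:79741431-79765535, minus strand), the NADP-dependent form of the mitochondrial matrix, measured 68.8, 62.0 and 59.9 CPM in WT and 65.1, 59.6 and 56.1 CPM in Drp1 KO. The groups overlapped in CPM, though not in TPM (48.3 to 52.5 in WT and 42.7 to 45.8 in Drp1 KO), and the log2 fold change was -0.08 (SE 0.101, adjusted p = 0.799). Idh3a (chr9:54493575-54514730, plus strand) encodes the catalytic subunit of the NAD-dependent enzyme that serves the cycle itself, and measured 42.0, 39.3 and 35.5 CPM in WT and 41.0, 37.9 and 40.6 CPM in Drp1 KO. The groups overlapped at a log2 fold change of 0.03 (SE 0.102, adjusted p = 0.933), which was -0.04 without WT library 3.

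Ogdh (chr11:6241551-6309233, plus strand) is the decarboxylating subunit of the alpha-ketoglutarate dehydrogenase complex and measured 158, 151 and 144 CPM in WT and 146, 123 and 121 CPM in Drp1 KO. Drp1 KO libraries 2 and 3 lay below all WT libraries, and Drp1 KO library 1 lay among them. In TPM the groups did not overlap, at 48.0 to 51.6 in WT and 38.5 to 44.9 in Drp1 KO. The log2 fold change was -0.21 (SE 0.102, adjusted p = 0.337), with an adjusted p of 0.0834 under the replicate block. Without both libraries numbered 1 it was -0.27 and was called (adjusted p = 0.0483).

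Fh1, fumarate hydratase (chr1:175425290-175453205, minus strand), measured 27.6, 25.9 and 28.1 CPM in WT and 24.1, 27.4 and 26.4 CPM in Drp1 KO. The groups overlapped, with a log2 fold change of -0.07 (SE 0.103, adjusted p = 0.846), which was 0.04 when counts were scaled by transcript length. Mdh2, the mitochondrial malate dehydrogenase (chr5:135807292-135820882, plus strand), measured 122, 106 and 98.7 CPM in WT and 123, 104 and 111 CPM in Drp1 KO. The groups overlapped at a log2 fold change of 0.05 (SE 0.110, adjusted p = 0.905), which was -0.032 when library 3 of WT was left out and -0.03 when library 1 of Drp1 KO was, and 0.18 with counts scaled by transcript length.

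Acod1 (chr14:103284413-103294009, plus strand), the itaconate enzyme, measured 66.4, 47.0 and 30.6 CPM in WT and 88.3, 42.3 and 62.3 CPM in Drp1 KO. Library 1 was the highest in each group, and Drp1 KO library 2 lay below WT library 2. Its log2 fold change of 0.42 was the largest in size among the members but had the largest error too (SE 0.290), and it did not pass the test (unadjusted p = 0.178, adjusted p = 0.545). With the replicate block the log2 fold change was 0.43 (unadjusted p = 0.0271, adjusted p = 0.133), which passed the looser rule but was not called. The log2 fold change was 0.11 with library 1 of Drp1 KO left out and 0.72 with library 1 of WT left out, and the adjusted p ranged from 0.203 to 0.887 over the fits that left out a single library.

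**Figure D2:**
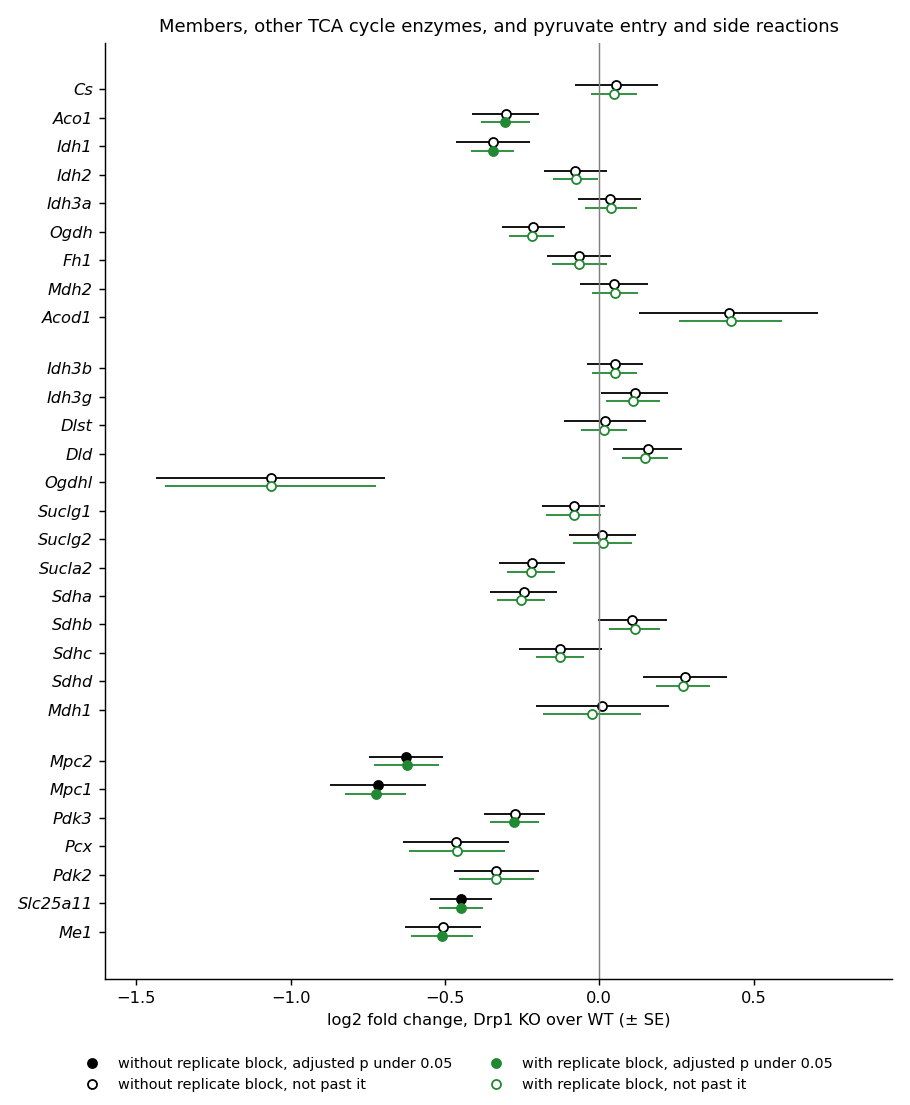
Log2 fold change of Drp1 KO over WT (x axis, ± SE) for the 9 members (top), the 13 other TCA cycle enzymes (middle) and the named genes of pyruvate entry and side reactions (bottom), without (black) and with (green) the replicate block. Filled points passed an adjusted p under 0.05, and among the members these were Aco1 and Idh1 with the block only.

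The transcripts behind the gene sums differed between members. For Cs, Aco1, Idh1 and Idh2 the canonical transcript took 94.7% or more of the gene's estimated counts in every library, for Ogdh 87.4% to 92.7% and for Fh1 73.4% to 83.1%. Acod1 has 1 transcript in the index. For Idh3a the canonical transcript Idh3a-201 was listed at 0 in all libraries, and Idh3a-203, annotated as a retained intron, took 52.1% to 67.7%. The coding Idh3a-205 took a mean of 36.8% in WT and 33.4% in Drp1 KO, with overlap. Kallisto divides reads that several transcripts share, so these shares are estimates.

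For Idh3a-203 the share was 52.1% to 60.7% in WT and 60.8% to 67.7% in Drp1 KO, a difference of 7.92 points between the means. The groups were separated by less than the spread within either, 20.1% of the transcripts compared as described below for Mdh2 had as large a difference, and the transcript was not called in the fit over all transcripts (edgeR adjusted p = 0.737, and 0.510 with the replicate block).

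The widest difference between genotypes in the members' transcript shares was at Mdh2, whose gene sums overlapped. The canonical Mdh2-201 has 9 exons. Mdh2-203 leaves out exon 2 (chr5:135812159-135812327, GRCm39, plus strand), which is 169 bases long and coding throughout, and it is annotated as a target of nonsense-mediated decay, the pathway that removes mRNAs with an early stop codon. Both stretches below are shown because they span the exon that Mdh2-203 leaves out, and each holds the last 40 bases of exon 1 and the opening 40 bases of exon 3 (chr5:135807616-135813077 in all). In Mdh2-201 the capitals mark exon 2, and in Mdh2-203 they mark the 10 bases on each side of the exon 1 to exon 3 join.
Mdh2-201: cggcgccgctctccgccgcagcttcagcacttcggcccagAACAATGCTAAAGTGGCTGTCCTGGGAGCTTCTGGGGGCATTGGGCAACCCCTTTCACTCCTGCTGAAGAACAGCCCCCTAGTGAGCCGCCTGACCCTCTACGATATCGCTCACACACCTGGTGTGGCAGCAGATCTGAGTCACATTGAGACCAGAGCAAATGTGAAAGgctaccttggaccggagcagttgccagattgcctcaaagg
Mdh2-203: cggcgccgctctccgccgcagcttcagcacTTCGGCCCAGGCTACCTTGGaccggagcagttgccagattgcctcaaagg

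Mdh2-201 held 58.3%, 61.7% and 53.9% of the Mdh2 counts in WT libraries 1 to 3 and 40.1%, 39.1% and 31.9% in Drp1 KO libraries 1 to 3. Mdh2-203 held 14.6%, 9.23% and 11.8% in WT and 28.2%, 24.2% and 30.5% in Drp1 KO. Neither transcript's share overlapped between the groups, a pattern shown by 22.9% of the 20470 transcripts with a mean share of 5% to 95% in genes of at least 100 counts on average. Differences as large as the -20.9 points of Mdh2-201 occurred in 2.23% of those transcripts, and as large as the 15.8 points of Mdh2-203 in 4.98%. Mdh2-207, a shorter coding transcript that starts exon 2 later, held 26.1% to 30.1% in WT and 29.0% to 35.0% in Drp1 KO, with overlap.

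In an edgeR fit over all 62020 transcripts tested, 0.332% were called at an adjusted p under 0.05, and neither Mdh2 transcript was among them. The log2 fold change of Mdh2-201 was -0.60 (SE 0.172, unadjusted p = 0.00977, adjusted p = 0.272), and that of Mdh2-203 was 1.251 (SE 0.265, unadjusted p = 0.00209, adjusted p = 0.139). With the replicate block the adjusted p was 0.141 for Mdh2-201 and 0.134 for Mdh2-203. Leaving out any single library kept the direction of both, from -0.74 to -0.49 and from 1.07 to 1.56. By shares of TPM instead of counts, the groups of both transcripts were also apart, at 31.6% to 39.3% against 17.8% to 24.0% for Mdh2-201 and 8.45% to 13.5% against 19.5% to 24.2% for Mdh2-203. The Mdh2-like copies Gm11241 and Gm12384 had 0 counts in every library, and a further copy, Gm68529, had no matched transcript and so no value here.

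**Figure D3:**
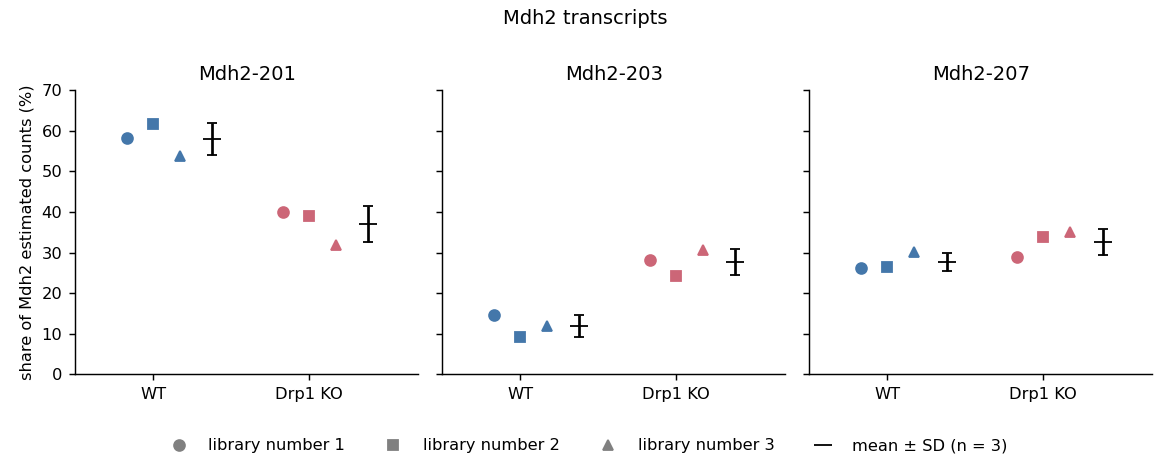
Share of the Mdh2 estimated counts (%, y axis from 0) on Mdh2-201, Mdh2-203 and Mdh2-207 in each WT (blue) and Drp1 KO (red) library, with the mean ± SD in black. Mdh2-201 lies at 53.9% to 61.7% in WT and 31.9% to 40.1% in Drp1 KO, and Mdh2-203 lies higher in every Drp1 KO library than in any WT library.

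Members were next set against their partner enzymes within each library, as ratios of TPM, with an exact two-sided permutation test that cannot give a p below 0.1 for 3 against 3. The ratio of mitochondrial Idh2 to cytosolic Idh1 was 0.136, 0.152 and 0.130 in WT and 0.157, 0.181 and 0.163 in Drp1 KO. The groups did not overlap (0.139 ± 0.0112 against 0.167 ± 0.0128, SD, n = 3, exact permutation p = 0.1, adjusted over the 4 ratios computed 0.4). Mdh2 to Mdh1 was 3.41 to 4.99 in WT and 3.99 to 6.34 in Drp1 KO (exact permutation p = 0.4), and 80.3% to 97.4% of the Mdh1 counts lay on Mdh1-203, a transcript with no defined coding sequence. Mdh1 also shares 482 bases with the overlapping gene Wdpcp, which had 189 to 362 counts in a library. Acod1 to Cs was 0.719, 0.624 and 0.384 in WT and 0.849, 0.558 and 0.789 in Drp1 KO, with overlap (exact permutation p = 0.4).

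None of the 13 other TCA cycle enzymes was called by edgeR, where 3.36% of all genes tested were called. Again none was called with the replicate block, where 12.0% of all genes tested were, or by DESeq2 or limma-voom. In edgeR, 2 had an unadjusted p under 0.05, as had 16.4% of all genes tested. The list's median log2 fold change was 0.010. Of the succinate dehydrogenase subunits, the catalytic Sdha measured 188, 177 and 180 CPM in WT and 177, 143 and 139 CPM in Drp1 KO, at a log2 fold change of -0.25 (SE 0.109, unadjusted p = 0.0484, adjusted p = 0.300). Without both libraries numbered 1 it was called (-0.34, adjusted p = 0.0204). The other subunits had log2 fold changes of 0.11 (Sdhb), -0.13 (Sdhc) and 0.28 (Sdhd), and none was called. Ogdhl, an Ogdh-like gene near the detection limit at 0.409 to 1.24 CPM, had a log2 fold change of -1.06 (SE 0.371, adjusted p = 0.175). The remaining log2 fold changes were 0.05 for Idh3b and 0.11 for Idh3g, the partners of Idh3a, 0.02 for Dlst and 0.16 for Dld, the partners of Ogdh, -0.08 for Suclg1, 0.01 for Suclg2 and -0.22 for Sucla2, the succinyl-CoA ligases, and 0.01 for the cytosolic Mdh1.

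Upstream of Cs, in the list of 13 genes of pyruvate entry, the carrier subunits Mpc1 and Mpc2 were called lower. No other gene of the list was called, where 3.36% of all genes tested were called in either direction. Mpc1 measured 74.2, 99.8 and 82.2 CPM in WT and 53.4, 61.2 and 41.3 CPM in Drp1 KO (log2 fold change -0.72, SE 0.156, adjusted p = 0.0355). Mpc2 measured 29.7, 33.1 and 37.9 CPM in WT and 23.3, 21.6 and 20.5 CPM in Drp1 KO (log2 fold change -0.63, SE 0.119, adjusted p = 0.0208). The Mpc1 call was lost when library 2 or 3 of WT or library 3 of Drp1 KO was left out (adjusted p up to 0.158), and the Mpc2 call with length-scaled counts or when library 2 or 3 of either genotype was left out (adjusted p up to 0.0987). Pdk2 (-0.33) and Pdk3 (-0.27), kinases that inhibit pyruvate dehydrogenase, and pyruvate carboxylase Pcx (-0.46) had an unadjusted p under 0.05 but were not called. Over all genes tested, 16.4% had an unadjusted p under 0.05. Pdk3 was called with the replicate block (adjusted p = 0.0471) and without both libraries numbered 1 (adjusted p = 0.0479). The Pcx value was 0.31 with counts scaled by transcript length. The list's median log2 fold change was -0.15, and with the block 3 of its genes were called lower and 2 higher (Pdhb and Pdp1, named here after their values were seen), where 12.0% of all genes tested were called in either direction.

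Of 18 genes of side reactions that feed or drain the cycle, 1 was called, where 3.36% of all genes tested were called. Slc25a11, the malate and alpha-ketoglutarate carrier, was called lower. It measured 109, 95.3 and 98.2 CPM in WT and 80.1, 68.2 and 73.8 CPM in Drp1 KO (log2 fold change -0.45, SE 0.10, adjusted p = 0.0406). Its call was lost with length-scaled counts or when any library but number 1 of Drp1 KO was left out (adjusted p up to 0.173). Me1, the cytosolic malic enzyme, measured 16.8 to 17.4 CPM in WT and 11.1 to 13.4 CPM in Drp1 KO (log2 fold change -0.51, SE 0.122, adjusted p = 0.0545), and was called with the replicate block (adjusted p = 0.00851), by DESeq2, with filterByExpr, when genes of any count were kept, and without both libraries numbered 1 (adjusted p = 0.0428). The list's median log2 fold change was 0.0071.

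Around Acod1, 2 of 8 factors known to act on its transcription were called higher in Drp1 KO, and none lower, where 3.36% of all genes tested were called in either direction. Irf1, an interferon regulatory factor, measured 45.1, 40.1 and 35.8 CPM in WT and 55.7, 60.5 and 65.5 CPM in Drp1 KO (log2 fold change 0.59, SE 0.113, adjusted p = 0.0214). Stat2, a transducer of interferon receptor signals, measured 44.8, 48.4 and 43.0 CPM in WT and 86.0, 123 and 133 CPM in Drp1 KO (log2 fold change 1.33, SE 0.152, adjusted p = 0.00124). Within Drp1 KO both factors were lowest in library 1, the library in which Acod1 was highest. Within WT, Irf1 followed the library order of Acod1 and Stat2 did not. Whether either factor acts on Acod1 in these cells was not tested. The Irf1 call was lost with length-scaled counts or when library 2 or 3 of either genotype was left out (adjusted p up to 0.142), and the call of Stat2 was kept in each such fit. The median log2 fold change of the 8 factors was -0.025.

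**Figure D4:**
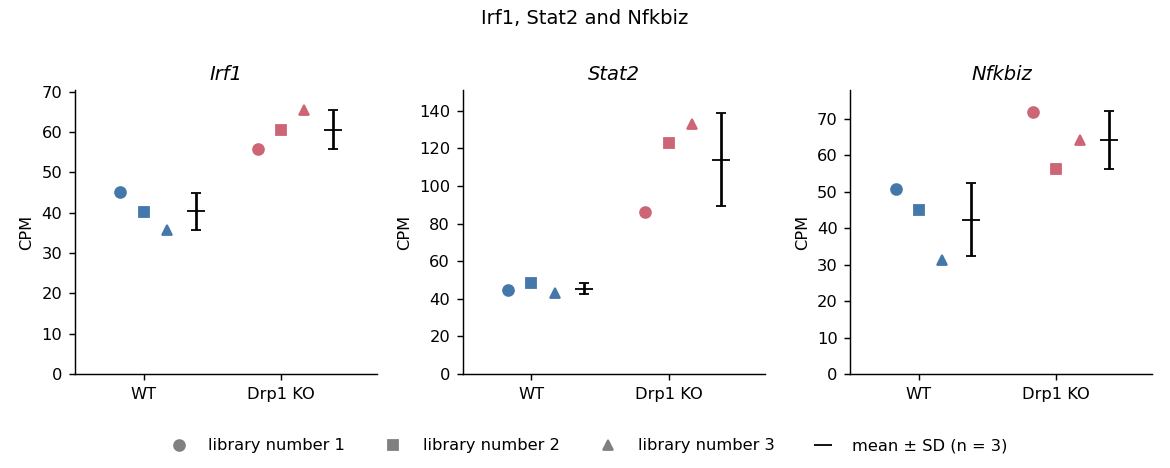
Normalized level (CPM, y axis from 0) of Irf1, Stat2 and Nfkbiz in each WT (blue) and Drp1 KO (red) library, with the mean ± SD in black. In each panel every Drp1 KO library lies above every WT library, and the Acod1 panel of the members' plot overlaps.

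Of 9 genes of itaconate breakdown and itaconate targets, 8 were tested. None was called by edgeR without the replicate block, where 3.36% of all genes tested were called. An unadjusted p under 0.05 was reached by 1 of them and by 16.4% of all genes tested. Sucnr1, the succinate receptor, had 0 counts in all libraries. Nfkbiz, which encodes the inflammatory regulator IκBζ, measured 50.8, 45.0 and 31.3 CPM in WT and 72.0, 56.2 and 64.2 CPM in Drp1 KO (log2 fold change 0.60, SE 0.168, adjusted p = 0.0924). It was called with the replicate block (adjusted p = 0.00765), by DESeq2, when genes of any count were kept, with library 1 of WT left out (adjusted p = 0.0391) and without both libraries numbered 1 (adjusted p = 0.0305). The list's median log2 fold change was -0.06.

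The pattern of Acod1 over the 6 libraries was most like that of Topbp1 (Pearson r = 0.985 of log2 CPM), followed by Fmnl2 (0.967), Desi2 (0.967), Nfs1 (0.966) and Slc35a4 (0.966), out of 7953 genes averaging 10 CPM or more. These correlations describe 6 points that share their library preparation, and the leading gene, Topbp1, varied only from 53.1 to 62.2 CPM. None of the 5 genes was called in the comparison of genotypes, with log2 fold changes from 0.06 to 0.29.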

How the data were processed

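RNA-seq of 3 WT and 3 Drp1 KO BMDM libraries was analysed. The authors pseudoaligned reads to Ensembl GRCm39 transcripts with kallisto 0.46.1 (the labels also name DESeq2 1.44.0) and deposited, per transcript, estimated counts, TPM and effective length. Of 116873 transcripts, 99.389% were matched to GENCODE vM39 genes, and transcripts left unmatched took 0.5423% to 0.5753% of the counts. Estimated counts were summed per gene, rounded to whole numbers and tested with edgeR 4.0.16 (quasi-likelihood test, TMM scaling, genes with at least 10 counts in total, Benjamini-Hochberg adjustment over all genes tested, in R 4.3.3). TPM was used for levels between genes, the log2 fold changes are Drp1 KO over WT, and error bars on means are SD. The script was tested on simulated data. Replicates are those of the labels, and the methods describe bone marrow pooled from mice, so p-values measure the spread between these libraries. Deviations from the group means correlated at 0.51, 0.204 and 0.298 between same-numbered libraries (12248 genes averaging 1 CPM or more), each over 0.1, and this was read as pairing, although WT library 2 correlated more with Drp1 KO library 3 (0.326). Blocked values were computed too.

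Named genes were all 9 members, every other TCA cycle enzyme, of the other 4 pathway lists the genes with unadjusted p under 0.05 (at most 6 by smallest p), Dnm1l, and the 5 genes most correlated with Acod1. Csf1r, Mertk, Fcgr1 and other markers come from fixed lists. A few list genes and 1 of the 4 ratios are not reported here. The members and lists were chosen with earlier results of these data known. Alternatives were DESeq2 1.42.0, limma-voom (limma 3.58.1), other scalings and filters, length-scaled counts, the replicate block and leaving out each library. Leaving out both libraries numbered 1 and the Mdh2 transcript fit were chosen after seeing the data. Sequences and coordinates are from GENCODE vM39 (GRCm39). By blastn 2.17.0, copies of at least 85% identity over 250 bases were found for Cs (Csl and Gm48254, at most 4 counts in a library) and Mdh2. They were also found for Idh3a (the overlapping Acsbg1, at most 1 count) and Mdh1. The Mdh1 match was 482 bases with the overlapping Wdpcp, which had 189 to 362 counts in a library.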

Additional observations from a re-analysis of the deposited data

How the results depend on the processing

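The number of genes called at an adjusted p under 0.05 was 621, and it was 1155 with DESeq2, 1065 with no filter beyond 1 count, 2212 with the replicate block, 1880 without both libraries numbered 1 (181 to 904 when a single library was left out). The number of members called was 0, and 2 with the replicate block (Aco1 and Idh1) and 2 without both libraries numbered 1 (Idh1 and Ogdh), and 0 under every other alternative run. The number of members past the looser rule was 1 (Idh1), and 2 with the replicate block (Idh1 lower and Acod1 higher), with a range of 0 to 2 when a library was left out. The number of other TCA cycle enzymes past it was 1 (Ogdhl, near the detection limit), where 12.7% of all genes tested passed. It was 2 with length-scaled counts or without both libraries numbered 1 (0 to 2 with a library left out). The replicate block also called Pdk3, Pdhb, Pdp1, Me1 and Nfkbiz, and 4 neutrophil markers, and changed no other call of a gene chosen by the naming rule. The TPM in place of counts moved the Mdh2 share differences from -20.9 to -14.92 points (Mdh2-201) and from 15.8 to 11.85 points (Mdh2-203).

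Pcx (0.31), Suclg1 (0.20) and Suclg2 (-0.25) changed sign with length-scaled counts, under which Aco1 was -0.19 and Mdh2 0.18. Fh1 was 0.036 with length-scaled counts and Cs -0.016 without both libraries numbered 1. With a library left out, Cs ranged from -0.11 to 0.15, Idh3a from -0.043 to 0.089, Mdh2 from -0.032 to 0.14, Dlst from -0.13 to 0.12, Suclg2 from -0.039 to 0.054 and Mdh1 from -0.29 to 0.17. Without both libraries numbered 1, Dlst was -0.014 and Mdh1 -0.26. Suclg2 was -0.00049 with RLE size factors and -0.00068 with filterByExpr. Mdh1 was -0.057 with limma-voom, -0.00098 with RLE size factors, -0.013 with library size only, -0.0029 with filterByExpr, -0.10 with length-scaled counts and -0.024 with the replicate block. The cause was not tested. With 3 libraries a group, changes the size of most members' could not be told from the spread between libraries.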

Other observations

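Slc13a3, a transporter of dicarboxylates and itaconate on the list of side reactions, was chosen here after its values were seen. It measured 978, 442 and 398 CPM in WT libraries 1 to 3 and 860, 610 and 597 CPM in Drp1 KO libraries 1 to 3, highest in library 1 of each group like Acod1 and Cs. Its log2 fold change was 0.18 (SE 0.300, edgeR adjusted p = 0.849), from -0.06 to 0.71 with a single library left out. It was called higher without WT library 1 (0.71, edgeR adjusted p = 0.0442) and without both libraries numbered 1 (0.52, edgeR adjusted p = 0.00588). Cebpb, a factor on the Acod1 list also chosen after its values were seen, measured 389, 225 and 192 CPM in WT and 358, 226 and 186 CPM in Drp1 KO, again highest in library 1 (log2 fold change -0.07, SE 0.280, edgeR adjusted p = 0.959).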
